A study of Mus musculus with 4 samples.

Results

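The genes described here are the mouse cytosolic ribosomal protein genes, including Rpl3l, the paralogue of Rpl3 that is made mainly in skeletal and heart muscle. A rule on names picked them out, and it was set with earlier results of these data known. It takes a protein-coding symbol made of Rpl or Rps, a number and at most 1 of the letters a, x or l. Rpsa, Rplp0, Rplp1 and Rplp2 are added, and the Rps6k kinases are left out. The rule found 80 genes among the 55573 gene IDs listed, 49 of the large and 31 of the small ribosomal subunit. They were measured as mRNA in 4 RNA-seq libraries of quadriceps muscle from mice aged 7 weeks. A pair of libraries is of C57BL/6J mice (wild type, WT). The other pair is of the strain B6.129S4-Vdrtm1Mbd/J, in which the vitamin D receptor is lacking in every tissue (knockout). All mice were kept on regular chow. The labels number the libraries of a genotype 1 and 2 without saying that they come from separate animals, so p-values measure only the spread between libraries, which may be technical.

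Total counts were between 10.79 and 21.34 M a library, with knockout replicate 1 the deepest, and 49.3% to 52.6% of them fell on protein-coding genes. Vdr itself had 5 and 0 counts in WT, against 5 and 1 in knockout, too few to check the genotype labels. Xist, the RNA of the inactive X chromosome, stood at 183 and 217 counts per M counts (CPM) in the WT and at 0 and 0.256 CPM in knockout. The Y-linked Ddx3y stood at 4.74 and 0 CPM in the WT and at 75.8 and 63.0 CPM in knockout. By these genes the WT libraries are mainly female and the knockout libraries male, so sex and genotype cannot be told apart in any comparison. The 17 muscle fibre markers summed to 125288 to 136932 CPM in WT and 118217 to 121169 CPM in knockout, and none of them was called.

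A ribosome has a small subunit, which reads the mRNA, and a large subunit, which joins the amino acids, and each holds a single copy of nearly every ribosomal protein. The mRNAs of these proteins are known to begin with a run of pyrimidines, the TOP motif, through which mTORC1 signalling sets their translation together. The protein Rpl3 reaches the centre where peptide bonds form. In adult striated muscle fibres Rpl3l largely takes its place, while Rpl3 is known to return when muscle grows or is injured.

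The coding sequences of Rpl3 and Rpl3l are shown first because the comparison of this pair depends on reads being assigned to the right gene. Over 1209 aligned coding bases the pair was identical at 893 (73.9%), and the longest identical run was 22 bases. The stretches below are bases 126 to 185 of each coding sequence (GENCODE M21, GRCm38), with the 10 bases that differ in capitals. They are centred on that longest run, so the pair is more alike here than over the whole coding sequence.
Rpl3: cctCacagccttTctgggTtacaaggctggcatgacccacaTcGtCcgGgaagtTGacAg
Rpl3l: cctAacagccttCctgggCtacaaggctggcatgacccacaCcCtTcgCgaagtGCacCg
Rpl3 is far closer to its processed pseudogene Rpl3-ps1 (chromosome X, 13202571 to 13203780), a copy inserted back into the genome, with which it shares 1207 of 1209 coding bases (99.8%) and an identical run of 728 bases. Of all 50-base stretches of the main Rpl3 transcript, 14.4% occur in no other annotated gene. For Rpl3l that share was 100%. A read of that length from Rpl3l thus matches no other annotated gene exactly, while most such reads from Rpl3 do.

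The start sites were described over the ribosomal protein genes and not for the pair, since Rpl3 has no entry in the promoter table used. Of the 80 genes, 60 were found in the table of RefSeq promoters (GRCm38.p6, 250 bases before to 50 after the start). A gene was counted if any of its promoters held the letters. The TOP-like letters CTCTTTC occurred on the sense strand in 13 of the 60 (21.7%), against 4.50% of the 16515 protein-coding genes searched. Counted on either strand they occurred in 17 (28.3%), against 9.09% of all genes searched. The ETS-type letters CCGGAAGT on either strand occurred in 12 of 60, against 5.94% of all genes searched. The E-box CAGCTG, which reads the same on both strands and is the form bound by myogenic factors, occurred in 4 (6.67%), against 17.7%, and Rpl3l was among these 4. None of these motifs overlaps another in its letters. The genes listed below beside Rpl3l are hand-picked examples that carry the shorter CTCTTT, and not typical members. The windows run from 10 bases before to 15 bases from the start and show CTCTTT in capitals. It begins at the start itself in the first 4 genes and 5 bases further in for Rps26, and Rpl3l has no such run in this window. In Rps6 no c follows the run, so its window does not hold the full CTCTTTC. Most of the 60 genes searched, Rpl3l among them, lacked CTCTTTC on the sense strand.
Rpl28 (chr7:4792955-4792979, plus strand): tctcgtgtctCTCTTTccgtctccg
Rpl35 (chr2:39005117-39005141, minus strand): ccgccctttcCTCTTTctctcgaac
Rpl35a (chr16:33056472-33056496, plus strand): gcttgccttcCTCTTTccgccatct
Rps6 (chr4:86857353-86857377, minus strand): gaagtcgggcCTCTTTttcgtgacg
Rps26 (chr10:128626492-128626516, minus strand): gcaagccgccggatcCTCTTTcgag
Rpl3l (chr17:24727816-24727840, plus strand): ttctagctctgtcatttgacctctg
The 150 bases before the Rpl3l start carry the E-box, in capitals, close to the start.
Rpl3l promoter (chr17:24727676-24727825, plus strand): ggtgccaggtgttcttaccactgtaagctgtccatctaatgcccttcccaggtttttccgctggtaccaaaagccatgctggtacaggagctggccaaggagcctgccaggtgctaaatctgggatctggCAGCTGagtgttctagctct
A match of letters is a description of the window and not a site in use.

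Rpl3l (ENSMUSG00000002500, chromosome 17, 24727820 to 24736143) was expressed at a similar level in all 4 libraries. It stood at 122 and 107.6 CPM in WT, against 116 and 109 CPM in knockout. The groups overlapped, and the log2 fold change of knockout over WT was -0.027 ± 0.13 (SE, n = 2 libraries a group; adjusted p = 0.958, from edgeR's quasi-likelihood F test, Benjamini-Hochberg over 13076 genes). Its sign turned when counts were scaled by library size alone, to 0.023.

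Rpl3 (ENSMUSG00000060036, chromosome 15, 80077791 to 80091868) stood at 41.3 and 45.9 CPM in WT, against 62.7 and 58.1 CPM in knockout. Both knockout libraries lay above both WT libraries. The log2 fold change was 0.47 ± 0.12 (SE), and it was not called (adjusted p = 0.102 by edgeR), although it had the smallest adjusted p of all ribosomal protein genes tested. One pair of settings changed that call: with no low-count filter together with edgeR's older estimation of the spread, which is the tool's default, the adjusted p was 0.0316, at a log2 fold change of 0.48. Each of these settings alone left it uncalled, at adjusted p = 0.0697 without the filter and 0.0844 with the older estimation. Its pseudogene Rpl3-ps1 followed the same order, at 8.72 and 9.13 CPM in WT, against 14.2 and 14.1 CPM in knockout, with a log2 fold change of 0.66 ± 0.16 (adjusted p = 0.0670 by edgeR). Counts listed for Rpl3 pseudogenes came to 22.4% of those listed for Rpl3. Most reads of the gene and of Rpl3-ps1 cannot be told apart by sequence, and with the pseudogene counts added to their parent genes Rpl3 had a log2 fold change of 0.50 (adjusted p = 0.0749). Rpl3 lies 17.8 Mb from Vdr on the same chromosome. Of the other 3 ribosomal protein genes there, Rpl8, 20.9 Mb from Vdr, had a log2 fold change of 0.22 (adjusted p = 0.461 by edgeR). Rpl30 and Rpl37, 63.4 and 92.7 Mb from Vdr, had log2 fold changes of -0.13 and -0.18 (adjusted p = 0.721 and 0.750 by edgeR). The part of the distance from Vdr in these values was not tested.

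To compare the pair, levels were divided by the length of the principal transcript. Rpl3 reached 30.6 and 34.0 CPM per kb in WT, against 46.4 and 43.0 CPM per kb in knockout, and Rpl3l 88.7 and 78.3 CPM per kb in WT, against 84.6 and 79.2 CPM per kb in knockout. Rpl3l lay above Rpl3 in every library on this scale, 2.90 and 2.30 times in WT and 1.82 and 1.84 times in knockout. As a share of the pair, Rpl3l made up 74.4% (95% Wilson interval 72.2% to 76.4%) in WT replicate 1 and 69.7% (67.7% to 71.7%) in WT replicate 2. It made up 64.6% (63.0% to 66.1%) in knockout replicate 1 and 64.8% (62.7% to 66.9%) in knockout replicate 2. These intervals cover counting error only. The means were 72.0% ± 3.27 in WT and 64.7% ± 0.179 in knockout (SD, n = 2 each), a difference of -7.36 percentage points. The groups did not overlap, and a two-sided exact permutation test gave p = 0.333, the smallest that 2 against 2 libraries can give. The order of the pair depended on the length used. Divided by the number of 50-base stretches found in no other gene, Rpl3l made up 29.5% and 24.95% in WT and 20.8% and 21.0% in knockout, so that Rpl3 lay above Rpl3l. That scale, chosen after the data were seen, takes every Rpl3 count as coming from its distinct stretches. It overstates Rpl3 where other stretches were counted too. The stretches rest on exact matches to annotated genes, and the mapping settings are not given, so which gene of the pair was higher is not settled. On that scale the difference between genotypes was -6.32 points. A change of length multiplies the ratio of the pair by the same factor in every library, so this value is no separate support.

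**Figure D1:**
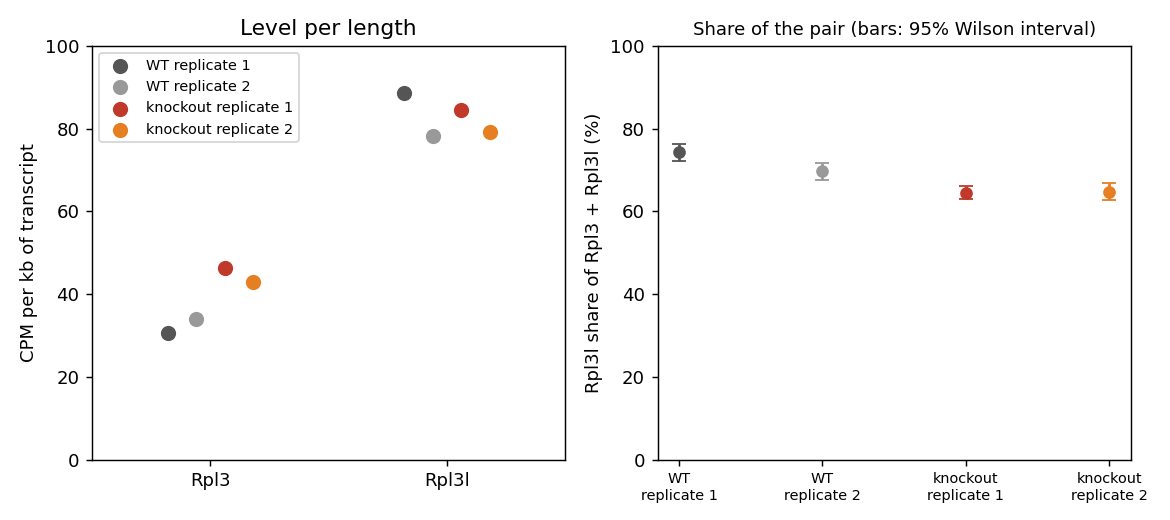
Left, CPM per kb of principal transcript for Rpl3 and Rpl3l, 1 point a library; right, the Rpl3l share of the pair in percent, with 95% Wilson intervals as bars. Rpl3l lies above Rpl3 in all 4 libraries on this scale, and its share is 74.4% and 69.7% in WT and 64.6% and 64.8% in knockout.

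Some markers of other cells differed with genotype. The marker lists were chosen with earlier results of these data known, so their calls are a description only. Of all genes tested, 2.03% were called. Of 14 fat cell markers, 10 were called higher and none lower in knockout, and their summed level was 1113 and 1376 CPM in WT, against 4632 and 4231 CPM in knockout. The 12 macrophage markers, none called, summed to 339 and 395 CPM in WT, against 405 and 430 CPM in knockout. The 6 tested red blood cell markers included 3 called higher, and the list summed to 243 and 267 CPM in WT, against 553 and 391.97 CPM in knockout. The 8 neutrophil markers, of which 2 were tested and none called, summed to 0.663 and 1.248 CPM in WT, against 31.6 and 3.07 CPM in knockout. The 10 endothelial markers summed to 642 and 757 CPM in WT, against 1460 and 1454 CPM in knockout. This difference lay in Fabp4, which the fat cell list also holds and which was called, and the other 9 summed to 255 and 268 CPM in WT, against 243 and 226 CPM in knockout. The 9 fibro-adipogenic markers summed to 5339 and 5327 CPM in WT, against 5825 and 6077 CPM in knockout, and the 7 tendon markers to 565 and 456 CPM in WT, against 454 and 326 CPM in knockout, with no call in either list. No marker of these lists was at 0 in all 4 libraries. Their part in the Rpl3 values was not tested. In whole muscle, fewer cells of a type and less RNA per cell cannot be told apart.

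Of the 80 genes, 76 passed the filter on low counts, 46 of the large and 30 of the small subunit. None was called by edgeR, against 2.03% of all genes tested (265 of 13076), and none by DESeq2. At an unadjusted p below 0.05 there were 6 (7.89%) by edgeR and 6 by DESeq2, where 14.0% of all genes were by edgeR. By edgeR 5 of these were higher in knockout (Rpl3, Rps26, Rpsa, Rps19 and Rpl7a) and 1 lower (Rpl13). Rpl7a, at a log2 fold change of 0.31, was named after its value was seen. The median log2 fold change over the 76 was 0.046, beside -0.00069 over all genes tested, and it was 0.038 for the large and 0.051 for the small subunit. Of the 76, 48 were positive and 28 negative, and 66 lay within 0.25 of 0. The SE of a single gene was 0.12 to 0.31, with a median of 0.13. Both knockout libraries lay above both WT libraries for 25 of 76 (32.9%), beside 23.0% of all genes tested, and below them for 5 (6.58%), beside 21.7%. Of those 25 genes, 15 belonged to the large and 10 to the small subunit.

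**Figure D2:**
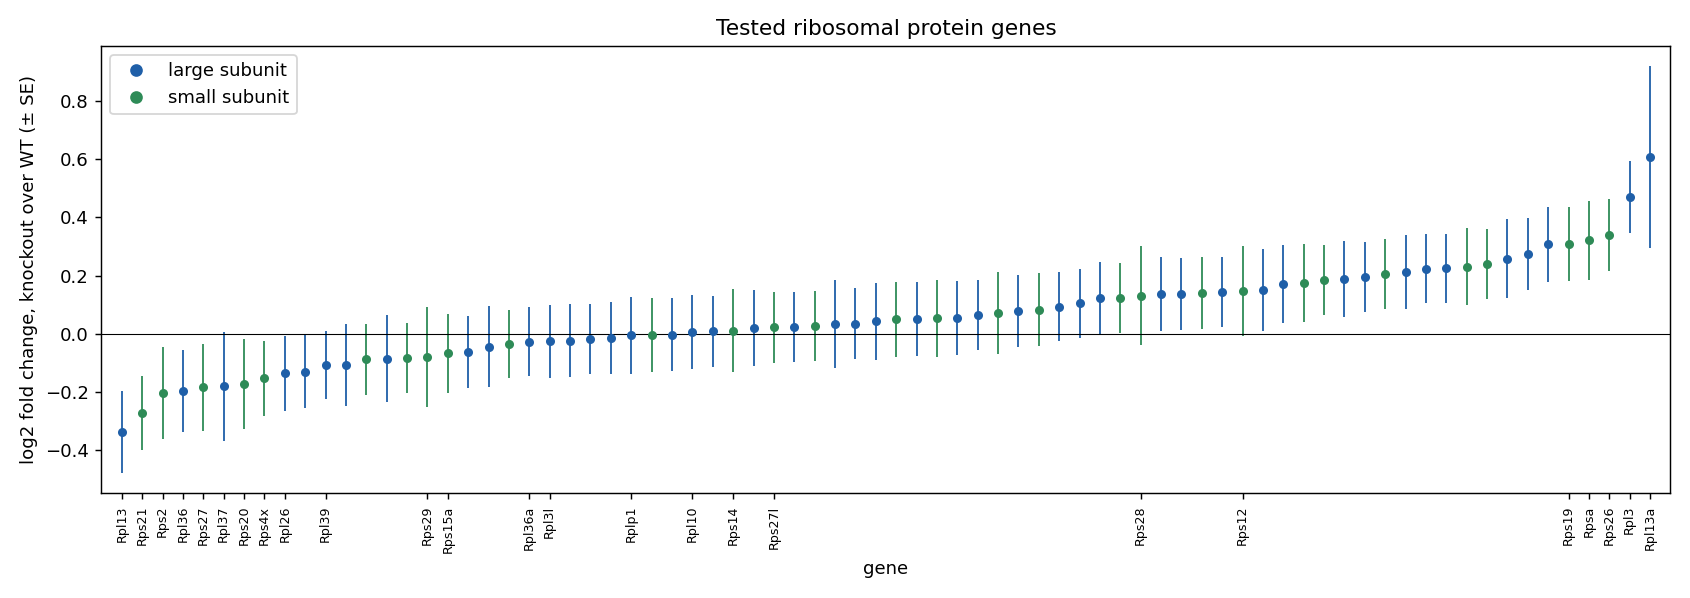
Log2 fold change of knockout over WT for the 76 tested ribosomal protein genes in ascending order, with standard errors as bars; blue points are large-subunit and green points small-subunit genes, with names for those the naming rule selects. The values run from -0.34 (Rpl13) to 0.61 (Rpl13a), 66 lie within 0.25 of 0, and both subunits are spread along the whole order.

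As a sum, the ribosomal protein genes took 2.45% and 2.55% of protein-coding counts in the WT libraries and 2.59% and 2.69% in knockout. The means were 2.50% ± 0.0682 and 2.64% ± 0.0647 (SD, n = 2 each), and no test was run on this sum. The libraries of the groups did not overlap. The large subunit held between 56.9% and 57.5% of these counts in every library.

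In the large subunit the highest fold changes were those of Rpl13a and Rpl3. Rpl13a, which is also known for a role in inflammatory translation control outside the ribosome, stood at 1.90 and 3.75 CPM in WT, against 4.28 and 4.52 CPM in knockout. Its log2 fold change was 0.61 ± 0.31 (adjusted p = 0.442), and the libraries of the WT group differed more than the genotypes did. Leaving out WT replicate 1 gave 0.23, and leaving out WT replicate 2 gave 1.20. The lowest was that of Rpl13, at 139 and 176 CPM in WT, against 121 and 129 CPM in knockout. Both knockout libraries lay below both WT libraries, at a log2 fold change of -0.34 ± 0.14 (adjusted p = 0.313). Leaving out WT replicate 2 gave -0.16, and leaving out WT replicate 1 gave -0.496. Rpl36 had 131 and 106 CPM in WT, against 95.6 and 110 CPM in knockout, with groups that overlapped. Its log2 fold change was -0.20, and -0.034 without WT replicate 1.

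In the small subunit Rps26, which sits at the mRNA exit channel, stood at 77.2 and 87.5 CPM in WT, against 104.4 and 104.1 CPM in knockout. The groups did not overlap, at a log2 fold change of 0.34 ± 0.12 (adjusted p = 0.237). Rpsa, also known as a laminin receptor, stood at 267 and 317 CPM in WT, against 376 and 353 CPM in knockout (log2 fold change 0.32, adjusted p = 0.318). Rps19, mutated in Diamond-Blackfan anaemia, stood at 128 and 109 CPM in WT, against 146 and 147 CPM in knockout (log2 fold change 0.31, adjusted p = 0.304). For both genes all knockout values lay above all WT values. On the other side Rps21 stood at 140 and 141 CPM in WT, against 107 and 126 CPM in knockout (log2 fold change -0.27, adjusted p = 0.388), without overlap. Rps2, part of the mRNA entry channel, had 321 and 433 CPM in WT, against 343 and 312 CPM in knockout. Rps27 had 209 and 170 CPM in WT, against 150 and 183 CPM in knockout. In these last genes the groups overlapped, at log2 fold changes of -0.20 and -0.18.

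The X-linked genes are of interest because the sexes differ. Rpl10 stood at 233 and 202 CPM in WT, against 219 and 217 CPM in knockout. The log2 fold changes of Rpl10, Rpl36a, Rpl39 and Rps4x were 0.0045, -0.028, -0.11 and -0.15, and none was called. Rps4x stood at 160 and 138 CPM in WT, against 129.6 and 138 CPM in knockout.

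Apart from Rpl3l, 3 symbols end in l. Rps27l, a p53-induced paralogue of Rps27, stood at 80.9 and 75.4 CPM in WT, against 83.1 and 75.5 CPM in knockout, with overlapping groups (log2 fold change 0.022). Rpl39l, a paralogue known from testis, had 7 and 4 counts in WT, against 20 and 6 in knockout and was not tested. Rpl10l, which stands in for the X-linked Rpl10 in male germ cells, had 0 counts in each library. A count of 0 allows up to 0.278 and 0.230 CPM in WT, against 0.141 and 0.268 CPM in knockout (3 counts a library).

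Rpl24 and Rps10 were not tested either, since they had almost no counts. Rpl24 had 0 and 4 counts in WT, against 10 and 1 in knockout, and Rps10 had 7 and 5 in WT, against 8 and 11 in knockout. Their products are ordinary parts of every ribosome. In the annotation 71.5% of the exon bases of Rpl24 lie under Gm28037, 70.8% of those of Rps10 under the readthrough gene RPS10-NUDT3, and 59.3% of those of Rpl13a under Gm45713 and Mir5121, all on the same strand. Gm28037, RPS10-NUDT3 and Gm45713 had 0 counts in all 4 libraries. No other ribosomal protein gene had more than 50% of its exon bases under a gene of its own strand; Rpl19 was next with 10.7%. Exons of 9 genes lie under a gene of the other strand. Rpl35 had the largest such share, 68.3% of its exon bases, and it had 1476 to 2918 counts a library. The part of the overlapping annotation in the low counts was not tested.

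Levels per length spread widely. Over the tested genes the mean over the 4 libraries had a median of 204 CPM per kb, with quartiles of 149 and 313. The highest was Rps29, at 713 and 668 CPM per kb in WT, against 532 and 774 CPM per kb in knockout, with a mean of 672. It was followed by Rplp1, a protein of the acidic stalk that recruits elongation factors, with a mean of 593 CPM per kb. Rps14, Rps27 and Rpl26 had means of 526, 516 and 479 CPM per kb. The ranges of these 5 genes over the libraries overlapped from each to the next, so their order is not resolved. At the low end stood Rpl13a at 3.45, Rps20 at 26.7 and Rps15a at 26.8 CPM per kb. The principal transcripts annotated for Rps20 and Rps15a are 3706 and 5130 bases long, and their undivided levels, 80.5 to 114 CPM and 120 to 148 CPM, were not low. Rpl3, with a transcript of 1351 bases, came next at a mean of 38.5 CPM per kb.

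Most of these genes share sequence with pseudogenes. The median share of 50-base stretches found in no other gene was 46.4%; it was under 50% for 48 of the 80 genes, above 90% for 9, Rpl3l and Rpl39l among them. Rows for processed or other pseudogenes named after 59 of the genes numbered 291, of which 116 had a count, and Rpl31 had the most, 24. Counts on these rows came to 0.608% of the counts on the genes themselves. The share was 90.3% for Rps10, with its few counts, and 26.8% for Rpl38, and that of Rpl3 was the next below. Across the 75 tested genes without Rpl13a, Spearman's rho between level per length and the share of distinct stretches was -0.12, given as a description over genes that share libraries and sequence.

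**Figure D3:**
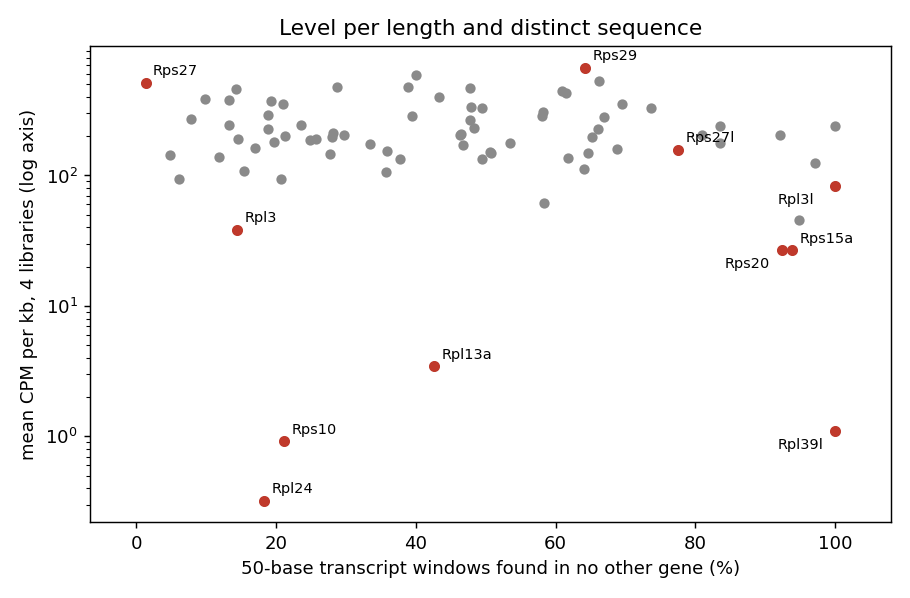
Mean CPM per kb over the 4 libraries (log axis) against the percentage of 50-base stretches of the principal transcript found in no other annotated gene, 1 point a gene; genes discussed are in red. Rps27, with 1.35% of its stretches distinct, is among the highest, and Rpl24, Rps10, Rpl13a and Rpl39l lie below all other genes plotted; Rpl10l, at 0, is not drawn.

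The libraries of a genotype differed among themselves, and among the ribosomal protein genes these differences varied with transcript length. In knockout replicate 2 against replicate 1 the log2 ratio was 0.54 for Rps29, 0.53 for Rps28 and 0.53 for Rpl37. In WT replicate 2 against replicate 1 it was 0.98 for Rpl13a and 0.44 for Rps12. Rps28 stood at 179 and 162 CPM in WT, against 152 and 221 CPM in knockout, so the knockout libraries enclosed the WT values. Rpl37 stood at 158 and 123 CPM in WT, against 102 and 147 CPM in knockout, and its groups overlapped. Across the 76 genes Spearman's rho with transcript length was -0.48 for the knockout ratio and 0.35 for the WT ratio, as a description over genes of the same libraries. The 13 genes under 500 bases had a median log2 ratio of 0.19 in knockout and -0.10 in WT, and the 21 genes of 1000 bases or more had -0.063 and 0.046. Other protein-coding genes of high level (mean log2 CPM above 5) and under 500 bases, 21 in number, had medians of 0.25 in knockout and -0.16 in WT, beside -0.018 and -0.062 for those of 1000 bases or more. Over all 2167 such genes, however, rho with length was 0.016 in knockout and -0.028 in WT. The knockout over WT fold change had a rho of 0.29 with length, with a median of -0.024 under 500 bases and 0.078 at 1000 or more. The part of length in the fold changes was not tested.

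**Figure D4:**
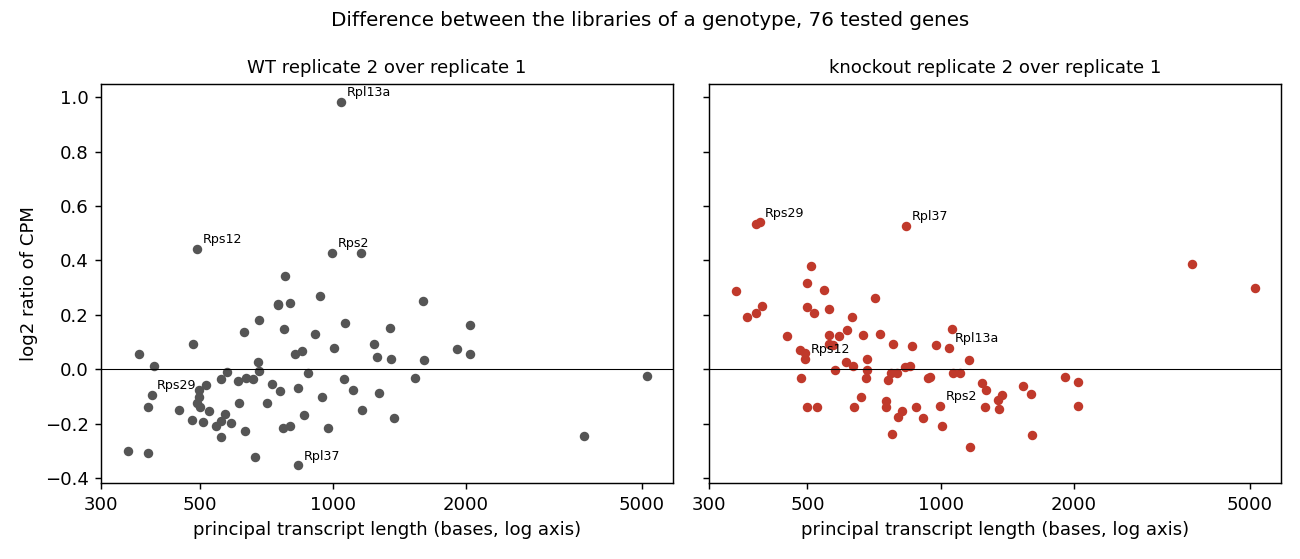
Log2 ratio of CPM between the libraries of a genotype, WT on the left and knockout on the right, against principal transcript length in bases (log axis), 1 point for each of the 76 tested genes. Of the 13 genes under 500 bases, 11 lie above 0 in knockout (Rps29 at 0.54) and 9 below 0 in WT (Rps29 at -0.094). Those above 0 in WT are Rps12 (0.44), Rpl36a (0.092), Rpl38 (0.055) and Rps21 (0.013). Those below 0 in knockout are Rps27l (-0.14) and Rpl36a (-0.032).

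The wider translation machinery gave 1 call in 6 lists. Of 37 initiation factors, none was called higher and 1 lower, beside 2.03% of all genes tested. This was Eif2s3x, the gamma subunit of eIF2, which brings the initiator tRNA to the small subunit. It stood at 46.0 and 48.0 CPM in WT, against 30.3 and 29.8 CPM in knockout, without overlap, and fell by 0.65 ± 0.12 on the log2 scale (SE, adjusted p = 0.0257 by edgeR). Leaving out WT replicate 2 ended the call (adjusted p = 0.0747), as did leaving out either knockout library (0.0827 without replicate 1 and 0.0836 without replicate 2). Eif2s3x is X-linked and known to escape X inactivation in mice, and its Y-linked partner Eif2s3y stood at 1.99 and 0.0780 CPM in WT, against 33.1 and 25.7 CPM in knockout, so sex and genotype cannot be told apart for this gene. Eif5b and Eif3j1 had log2 fold changes of -0.45 and -0.34 and were not called (adjusted p = 0.162 and 0.293).

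None of the other lists had a call. Of 13 elongation factors, 7 were positive, with a median log2 fold change of 0.0057. Eef1a1, which carries aminoacyl-tRNA to the ribosome, stood at 674 and 803 CPM in WT, against 983 and 838 CPM in knockout (log2 fold change 0.30, adjusted p = 0.408). Its muscle and neuron form Eef1a2, named after its values were seen, stood at 428 and 398 CPM in WT, against 394 and 372 CPM in knockout (log2 fold change -0.11, adjusted p = 0.781). Eef1e1 and Eef1b2 had log2 fold changes of 0.26 and -0.11. Of 24 tested genes of translation control, 9 were positive, and the median was -0.11. Among them Eif4ebp1, the mTORC1 target that holds back cap-dependent initiation, stood at 24.3 and 26.2 CPM in WT, against 34.2 and 37.4 CPM in knockout (log2 fold change 0.50 ± 0.13, adjusted p = 0.0957). Sesn1, a stress-induced inhibitor of mTORC1, and Pdcd4, an inhibitor of the helicase eIF4A, had log2 fold changes of -0.54 and -0.49 (adjusted p = 0.132 and 0.139). With no filter and the older estimation together, Eif4ebp1 and Sesn1 were called (adjusted p = 0.0287 and 0.0310).

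Of 51 ribosome biogenesis genes, 24 were positive, with a median of -0.0036. Myc, which drives ribosome production, stood at 4.93 and 4.99 CPM in WT, against 7.61 and 6.74 CPM in knockout (log2 fold change 0.54 ± 0.20, adjusted p = 0.255). The nucleolar proteins Ncl and Gnl3l had log2 fold changes of -0.36 and -0.33 (adjusted p = 0.2503 and 0.348). Of 10 tested ribosome-associated genes 5 were positive, and Nap1l1, Naca and Tpt1 had log2 fold changes of -0.36, -0.26 and -0.23. Of the 7 carriers that bring ribosomal proteins into the nucleus or hold them until assembly, 0 were positive and none was called, with a median of -0.074. The importins Ipo7 and Ipo5 had log2 fold changes of -0.30 and -0.18, and Heatr3, which carries Rpl5, had -0.26. Without WT replicate 1 those of Ipo5 and Heatr3 were -0.076 and -0.11.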

How the data were processed

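The authors deposited unnormalised counts per Ensembl gene and library, made with Trimmomatic and STAR on GRCm38 (mm10), per the submitters' processing notes, which also name DESeq2. The file layout is that of STAR's gene counts, an output that by design takes reads mapped to 1 place and overlapping 1 gene. Settings, versions, the annotation and which of that output's strand columns was kept: not given in the sources used here. Of 55573 IDs, 55480 matched GENCODE M21 and 93 did not. Counts were filtered with filterByExpr (minimum count 10, minimum total 15), scaled with TMM (trimmed mean of M values, factors 0.9797 to 1.048) and fitted over all 13076 genes with edgeR 4.0.16 in R 4.3.3 (quasi-likelihood F test, robust, genotype only). A gene was called at an adjusted p below 0.05. The newer estimation of the spread (legacy set to FALSE) was chosen after its count of calls had been seen to match an earlier analysis of these files; the tool's default, the older estimation, is an alternative. DESeq2 1.42.0 was another, besides other scalings, filters, a replicate block and leaving out libraries. Values are TMM-normalised CPM. The fit was tested on simulated data.

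The members and lists were chosen with earlier results of these data known. Genes named are Rpl3, Rpl3l and other symbols ending in l; called genes; the 5 highest and 5 lowest fold changes; the 5 highest and 3 lowest levels per kb; X-linked genes; the 5 largest differences between libraries of a genotype; and in each translation list called genes and the 3 with the smallest p. The other lists of cell markers gave these calls: B and plasma cells 1 higher of 3 tested, endothelium 1 higher of 10, and none for fibro-adipogenic cells, satellite cells, Schwann cells and tendon; no T cell marker was tested.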

Additional observations from a re-analysis of the deposited data

How the results depend on the processing

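Over 49 results and 719 alternative values, 671 kept their direction and side of the threshold or stayed within the spread, 27 turned sign, 15 moved, 3 passed the threshold and 3 lost it. No ribosomal protein gene was called in any alternative but 1: with no filter together with the older estimation, added after seeing the data, 1 was called (Rpl3, log2 fold change 0.48) and the translation lists had 3 calls. The median log2 fold change was 0.095 with library sizes only, 0.0599 without the filter, 0.0597 with the older estimation as well, and 0.024 to 0.084 leaving out a library. Rpl3 ranged from 0.40 to 0.55 leaving out a library, with adjusted p from 0.137 to 0.425. Rpl3l turned to 0.023 with library sizes only and ranged from -0.12 to 0.069 leaving out a library. The difference in the Rpl3l share was -5.23 points with all exons as length and -9.67 to -5.04 leaving out a library. Translation lists had 0 to 2 calls leaving out a library and 2 with a replicate block; the block left 0 ribosomal protein genes called. The replicate numbers are not shown to pair the libraries: same-numbered deviations correlated at 0.039 over all genes and -0.376 over the members.

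Signs of values near 0 turned as follows. Rpl10 was -0.0025 with DESeq2, -0.00036 with scaling on protein-coding genes and -0.0027 with RLE factors; Rpl36a was 0.022 and Rplp1 0.049 with library sizes only; Rplp1 was 0.0022 without the filter and 0.0023 with the older estimation as well. Leaving out a library gave these ranges: Rpl10 -0.098 to 0.11, Rpl36a -0.071 to 0.016, Rpl37 -0.46 to 0.056, Rplp1 -0.12 to 0.10, Rps12 -0.055 to 0.38, Rps14 -0.14 to 0.18, Rps15a -0.22 to 0.071, Rps2 -0.40 to 0.024, Rps20 -0.38 to 0.0039, Rps27l -0.054 to 0.092, Rps28 -0.16 to 0.37 and Rps29 -0.37 to 0.16. Of 44 named fold changes, 30 moved by over 1.5 times when some library was left out. Besides those above and those given in the text, these were Eef1a1 0.18 to 0.43, Eef1a2 -0.16 to -0.053, Eef1e1 0.12 to 0.43, Eif3j1 -0.49 to -0.18, Gnl3l -0.51 to -0.18, Rpl26 -0.21 to -0.054, Rps19 0.20 to 0.43, Rps21 -0.39 to -0.16, Rps27 -0.33 to -0.024, Rps4x -0.26 to -0.04, Rpsa 0.20 to 0.45 and Tpt1 -0.32 to -0.13. The cause was not tested. Counts of 0 to 20 a library leave Rpl10l, Rpl24, Rpl39l and Rps10 without a usable comparison.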
